A study of Mus musculus with 60 samples.

Results

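T cells recognise peptides on major histocompatibility complex (MHC) molecules through a receptor whose beta chain (TCRB) is assembled from V, D and J gene segments. The loop made at the joint, the complementarity determining region 3 (CDR3), holds the D segment and bases added or lost at the joints, and its middle residues lie over the bound peptide. Hydrophobic residues at positions 6 and 7 of the beta CDR3, counted from its first cysteine, are known as a feature tied to self-reactivity. CD4 T cells recognise peptides on MHC class II and CD8 T cells on MHC class I.

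The CDR3 with a central hydrophobic doublet were taken by sequence alone from the TCRB tables of CD4 and of CD8 T cells. A CDR3 was a member if it began with C, ended with F or W, held no other C, was 12 to 15 residues long, and had both residues 6 and 7 among the 7 residues F, I, L, M, V, W and Y. Such a row, with its V and J segment, is called a doublet clonotype here. There were 458 among the 58372 CD4 rows of these lengths and 788 among the 65550 CD8 rows, or 1246 of the 168222 rows of any length in both tables. In the 15 libraries analysed per table, 455 of the CD4 and 787 of the CD8 doublet clonotypes had a value above 0. The others were listed at 0 throughout. The doublet share of a library is the sum of its doublet fractions, divided by that of all rows of these lengths.

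The study followed the repertoire of donor T cells in graft-versus-host disease, in which transplanted T cells attack the tissues of the recipient. Donor CD90.2+ T cells (1000000) from C57BL/6 mice were transferred together with 5000000 bone marrow cells depleted of T cells, from WT C57BL/6 mice, to lethally irradiated WT BALB/c recipients. The donor T cells were WT, STAT3ko (Stat3 deleted through Cre driven by the CD4 promoter) or STAT3koPD-1ko (the same deletion with loss of PD-1, an inhibitory receptor). The bone marrow and the recipients were WT in every group. Cells sorted as H-2Kb+TCRβ+ and CD4+ or CD8+ gave 2 libraries per genotype from each of liver and gut on day 6 after hematopoietic cell transplantation (HCT), each from 3 pooled recipients, and 1 library per genotype from spleen labelled before HCT. The tables hold receptor sequences and no other transcripts, so neither the deletion of Stat3 nor the sorted cell type could be checked against them.

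All values are fractions of the reads of a library, the number of reads is not in the tables, and the depth is therefore unknown. More cells of a clone and more receptor RNA per cell cannot be told apart in such fractions. The join that made each table covered 18 libraries and kept a clonotype when 2 or more of them held it. The listed clonotypes held 81.6% to 97.2% of the reads in 12 CD4 libraries and 81.5% to 98.4% in 12 CD8 libraries. In the 3 gut libraries numbered 2 they held 47.8% to 51.5% for CD4 and 53.2% to 58.0% for CD8. These 6 libraries stand apart, and the tests of gut against liver are given with and without them.

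The D segments and the most frequent doublet clonotypes are shown to make the doublet visible in its bases. TRBD1 (chr6:41533201-41533212, plus strand, GRCm38 with GENCODE M21) and TRBD2 (chr6:41542163-41542176, plus strand) read as follows.
TRBD1: gggacagggggc
TRBD2: gggactgggggggc
Read in its 3 frames, TRBD1 gives GTGG, GQG and DRG, with 0 residues of the hydrophobic set. TRBD2 gives GTGG, GLGG and DWGG, so that 2 of its 3 frames hold 1 hydrophobic residue, a leucine or a tryptophan, followed by glycines.

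The 3 doublet clonotypes with the highest mean fraction in each table are given next, with the bases of residues 6 and 7 in capitals. The bases are the representative version listed in the tables for that CDR3.
CD4, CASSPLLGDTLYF: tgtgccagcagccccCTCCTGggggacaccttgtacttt
CD4, 15 residues with leucine-tryptophan, TRBV16 and TRBJ2-5: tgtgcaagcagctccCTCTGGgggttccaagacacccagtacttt
CD4, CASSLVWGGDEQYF: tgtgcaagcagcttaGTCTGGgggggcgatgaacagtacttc
CD8, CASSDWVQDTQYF: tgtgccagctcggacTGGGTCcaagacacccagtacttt
CD8, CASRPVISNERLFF: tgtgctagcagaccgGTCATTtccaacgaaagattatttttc
CD8, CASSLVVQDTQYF: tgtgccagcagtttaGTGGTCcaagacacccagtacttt
In 4 of these 6 a TRBD2 segment was called, and in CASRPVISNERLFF and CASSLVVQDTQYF no D segment was called. In the 3 CD4 clonotypes the doublet is followed by a glycine.

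The doublet clonotypes listed in the most libraries are shown because they are the ones that recur between libraries.
CD4, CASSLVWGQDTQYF: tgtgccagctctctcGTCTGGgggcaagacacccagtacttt
CD4, 15 residues with valine-tryptophan, TRBV16 and TRBJ2-5: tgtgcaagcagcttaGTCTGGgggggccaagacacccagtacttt
CD4, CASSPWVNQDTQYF: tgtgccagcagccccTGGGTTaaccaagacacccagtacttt
CD8, 15 residues with valine-tryptophan, TRBV16 and TRBJ2-1: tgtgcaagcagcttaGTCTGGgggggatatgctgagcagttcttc
CD8, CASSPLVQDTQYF: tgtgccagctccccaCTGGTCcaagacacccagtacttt
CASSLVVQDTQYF, printed above, also belongs to these in CD8. The first CD4 one was listed in 6 of 15 libraries and the first CD8 one in 10 of 15.

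The doublet share was compared between CD4 and CD8 T cells first. In liver the CD4 libraries had a lowest share of 0.512%, a median of 0.598% and a highest of 0.918% (n = 6), and the CD8 libraries had 0.711%, 0.870% and 1.09% (n = 6). The groups overlapped. The mean was 0.643% ± 0.154 (SD) for CD4 and 0.868% ± 0.133 for CD8, a ratio of 0.741. The difference of -0.225 percentage points had p = 0.0303 in an exact two-sided permutation test over libraries, and 0.0606 after adjustment over the 2 tissues, so it did not pass. It passed, in the same direction, with every fraction capped at 0.01% of reads (-0.424, exact permutation adjusted p = 0.00433), with the same weight for each V segment in every library (-0.383, 0.00433), with the same weight for each length (-0.259, 0.0216), over 11 to 16 residues (-0.393, 0.0173), without CD4 STAT3koPD-1ko liver replicate 2 (-0.280, 0.0130) and without CD8 WT liver replicate 2 (-0.257, 0.0433). It did not pass on a log2 scale (exact permutation adjusted p = 0.0563), against rows from C to F or W with no other C alone (-0.196, 0.117), for clonotypes in at least 3 libraries (-0.267, 0.143), with the same D segment weights (-0.221, 0.156, chosen after seeing the data), with a replicate block (-0.225, 0.125) or without the liver libraries numbered 1 (-0.168, 0.5). With Y left out of the residue set it was -0.101 (exact permutation adjusted p = 0.251), a change of more than 1.5 times. In gut the CD4 shares ran from 0.0965% through a median of 0.548% to 0.691%, and the CD8 shares from 0.344% through 0.677% to 0.957%. The difference in gut was -0.224 percentage points (exact permutation p = 0.165, adjusted 0.165). It was -0.260 without the libraries numbered 2, -0.138 without Y, -0.388 over 11 to 16 residues (exact permutation adjusted p = 0.0628), -0.329 with the same V segment weights (0.128) and -0.306 with capped fractions (0.0519). CD8 was higher than CD4 in 10 of the 15 pairs of the same site, genotype and number. The tables of CD4 and CD8 were joined separately, which is a limit of every comparison between them.

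When each listed clonotype was counted once, rather than by its reads, the cell types separated. In liver, 0.555% to 0.676% of the CD4 clonotypes of these lengths had the doublet (median 0.620%, n = 6) and 0.908% to 1.18% of the CD8 clonotypes (median 1.01%, n = 6). No CD4 liver library reached the lowest CD8 liver library. The difference of means was -0.412 percentage points (0.616% against 1.03%, exact permutation p = 0.00216, adjusted 0.00433), and 0.00216 is the smallest value that 6 against 6 libraries can give. In gut the CD4 values ran from 0.217% to 0.713% (median 0.497%) and the CD8 values from 0.550% to 1.17% (median 0.846%), so these groups overlapped. The gut difference was -0.367 percentage points (exact permutation p = 0.0390, adjusted 0.0390), and -0.393 without the gut libraries numbered 2, where 3 against 3 libraries cannot go below p = 0.1. CD8 was higher in 15 of 15 pairs by number, the 3 pairs from before HCT included. In those 3 pairs the CD4 values were 0.574% (WT), 0.520% (STAT3ko) and 0.542% (STAT3koPD-1ko), and the CD8 values 0.893%, 1.09% and 1.18%. Where the share was averaged with the same weight for each number of libraries listed, an alternative chosen after seeing the data, the difference was -0.443 in liver and -0.364 in gut (exact permutation p = 0.00216 in both).

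**Figure D1:**
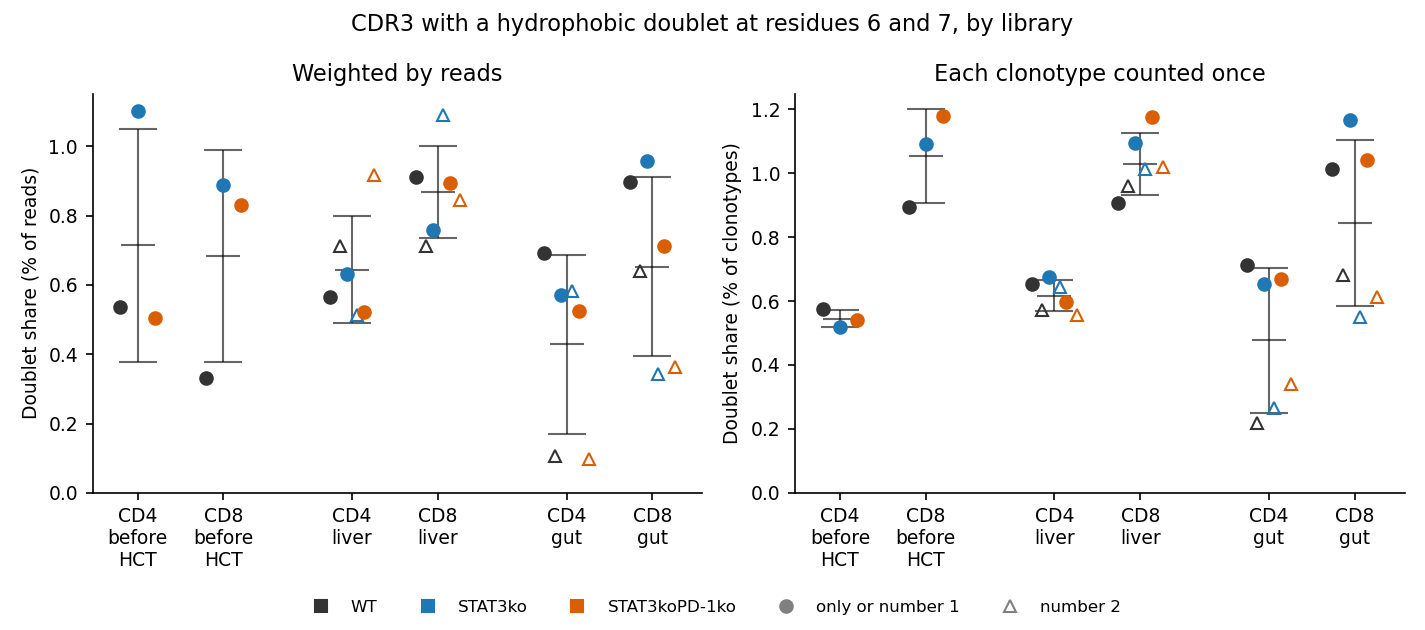
Doublet share of each library in percent, weighted by reads (left) and with each clonotype counted once (right), for CD4 and CD8 T cells before HCT, in liver and in gut. Colours mark the genotype, open triangles the libraries numbered 2, and black bars the mean ± SD. Counted once, the CD4 liver libraries (0.555% to 0.676%) sit below the CD8 liver libraries (0.908% to 1.18%), and the gut libraries numbered 2 lie lowest in each gut group.

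Hydrophobic residues at either position alone had lower means in CD4. Only rows from C to F or W with no other C were counted for this, as a share of all rows of these lengths. At position 6 a hydrophobic residue was found in 9.55% ± 1.62 (SD) of the CD4 reads of these lengths (5.30% to 11.1%, n = 15) and in 12.4% ± 1.46 of the CD8 reads (9.76% to 15.2%, n = 15). At position 7 the values were 11.1% ± 0.975 and 13.3% ± 0.681. As a share of the counted rows alone, position 6 had 10.8% (before HCT), 11.4% (liver) and 8.84% (gut) in CD4. In CD8 it had 12.7%, 12.7% and 12.8%. These differences were not tested. The doublet was rarer than the product of these shares in all 15 CD4 and all 15 CD8 libraries, with a median ratio of 0.525 in CD4 (0.132 to 0.987) and 0.481 in CD8 (0.184 to 0.654). With each clonotype counted once the median ratios were 0.484 and 0.517. A hydrophobic residue at 1 of the 2 positions thus went with a non-hydrophobic residue at the other more often than the single shares give.

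Positions 6 and 7 were not the only place where the cell types differed in value. Among rows that run from C to F or W with no other C, adjacent hydrophobic residues at 7 and 8 held 1.03% ± 0.388 (SD, n = 6) of the CD4 and 1.79% ± 0.128 of the CD8 liver reads, and those at 8 and 9 held 0.739% ± 0.178 and 1.55% ± 0.253. At 6 and 7 the same base gave 0.701% ± 0.173 and 0.897% ± 0.136. The pair at 5 and 6, where the V segment often gives a leucine at 5, was the most frequent up to the pair at 9 and 10, at 4.93% ± 0.722 and 5.28% ± 0.410. The pair at 10 and 11 was higher still, at 5.83% ± 0.692 and 7.71% ± 0.562. The values at other positions are descriptions and were not tested.

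**Figure D2:**
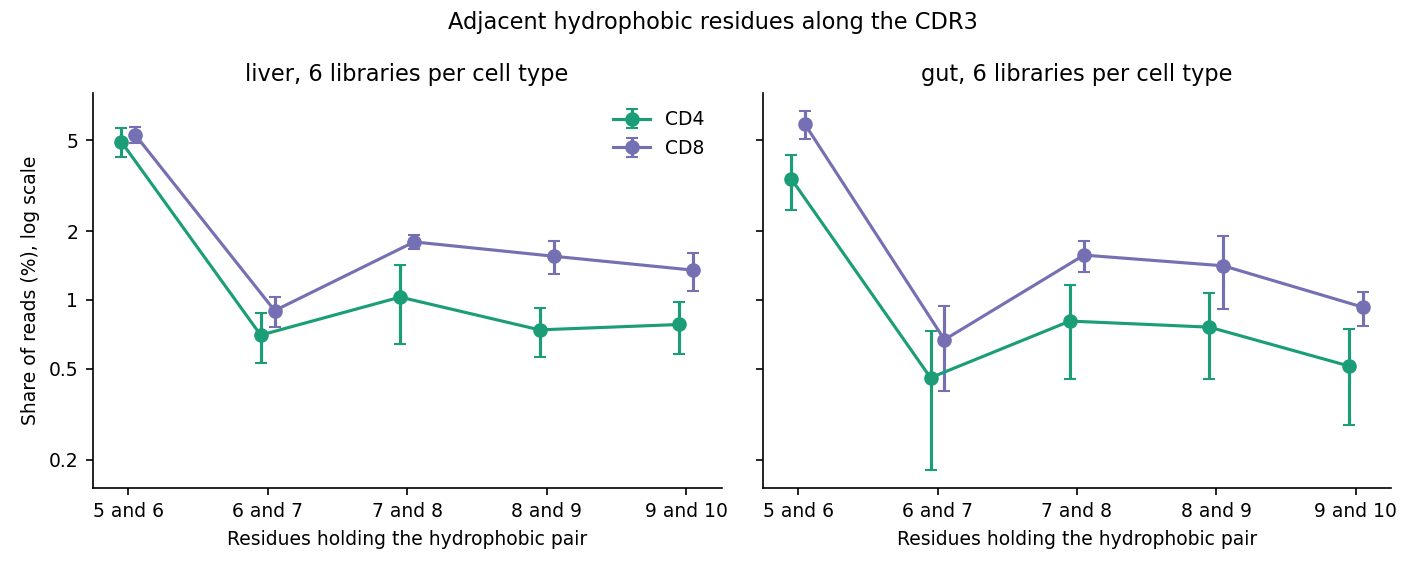
Share of reads, in percent on a log axis, of rows from C to F or W with no other C in which 2 adjacent residues are hydrophobic, by position, in liver (left) and gut (right). Points are means of 6 libraries and bars the SD. The doublet at 6 and 7 (0.701% in CD4 and 0.897% in CD8 liver) lies below the pairs on either side, and CD8 lies above CD4 at each of the 5 positions drawn, 5 to 9. At 3 and 4, not drawn, CD4 was higher (0.0220% against 0.00542% in liver), and at 4 and 5 in liver as well (0.0819% against 0.0594%).

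Tissues were compared within each cell type. The mean doublet share was 0.428% ± 0.259 (SD, n = 6) in gut and 0.643% ± 0.154 in liver for CD4, and 0.652% ± 0.259 in gut and 0.868% ± 0.133 in liver for CD8. The gut groups overlapped the liver groups in both cell types. Neither difference passed, at -0.215 percentage points for CD4 (exact permutation p = 0.145, adjusted over 7 tests 0.458) and -0.216 for CD8 (exact permutation p = 0.110, adjusted 0.458). Liver and gut libraries numbered 1 of a genotype both overlapped with the same library before HCT, as given below, and these tests did not pair them. The CD4 difference did not differ from the CD8 difference beyond the spread (0.000844 percentage points, exact permutation p = 0.991).

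In gut the 3 lowest CD8 libraries, and the 2 lowest CD4 libraries, were numbered 2. For CD4 these had 0.105% (WT), 0.581% (STAT3ko) and 0.0965% (STAT3koPD-1ko), from 12, 7 and 8 doublet clonotypes, while those numbered 1 had 0.691%, 0.570% and 0.525%, from 135, 87 and 89. The STAT3ko gut library numbered 2 rested on 1 clonotype, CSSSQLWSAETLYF (TRBV23 and TRBJ2-3), which made up 51.9% of its doublet reads. For CD8 the libraries numbered 2 had 0.641%, 0.344% and 0.363%, from 64, 38 and 53 doublet clonotypes, and those numbered 1 had 0.897%, 0.957% and 0.712%, from 210, 244 and 229. Without the libraries numbered 2 the gut minus liver difference was -0.0478 percentage points for CD4 and -0.0129 for CD8. It was 0.0628 and 0.0445 when each clonotype was also counted once. In 5 of the 6 gut libraries numbered 2 the doublet share was lower than in number 1 of the same genotype, the CD4 STAT3ko library being the exception. The lower share of reads listed in the libraries numbered 2 stands beside these values, and its part in them was not tested.

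Before HCT there was 1 library per genotype. For CD4 the doublet shares were 0.535% (WT), 1.102% (STAT3ko) and 0.506% (STAT3koPD-1ko), and for CD8 0.331%, 0.888% and 0.830%. In the STAT3ko CD4 library 34.6% of the doublet reads belonged to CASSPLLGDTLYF (TRBV5 and TRBJ2-4), and counted once its share was 0.520%, the lowest of the 3. In the WT CD8 library the 64 doublet clonotypes had a mean of 0.00407% of reads each, against 0.0111% for the other clonotypes of these lengths, and its share counted once was 0.893%. Liver minus before HCT was -0.0711 percentage points for CD4 (exact permutation p = 0.726) and 0.185 for CD8 (exact permutation p = 0.262). Gut minus before HCT was -0.286 for CD4 (exact permutation p = 0.238) and -0.0305 for CD8 (exact permutation p = 0.857). None passed after adjustment, where the values ran from 0.458 to 0.991. With each clonotype counted once, liver minus before HCT had the other sign in both cell types. It was 0.0712 in CD4 (exact permutation p = 0.0595, adjusted 0.417) and -0.0255 in CD8 (exact permutation p = 0.738). For clonotypes in at least 3 libraries, liver minus before HCT in CD4 was -0.438 (exact permutation p = 0.0714) and gut minus before HCT -0.429 (exact permutation p = 0.0476), and neither passed after adjustment. The values also rested on single libraries. Without the WT library, liver minus before HCT in CD8 was 0.00914 and gut minus before HCT -0.207. Without the STAT3ko library, they were 0.123 and -0.0924 in CD4, and gut minus before HCT in CD8 was 0.0722. Without the gut libraries numbered 2, gut minus before HCT was -0.119 in CD4 and 0.172 in CD8. The 84 splits of 6 against 3 libraries and the spread before HCT limit what these tests can show.

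The libraries taken as before HCT shared reads with 1 set of day 6 libraries. The overlap of 2 libraries, summed over doublet clonotypes as the smaller of the 2 fractions of doublet reads, was 47.2% ± 10.2 (SD, n = 3) for CD4 and 42.9% ± 14.6 for CD8 between the library before HCT and liver replicate 1 of the same genotype. With liver replicate 2 of the same genotype it was 0.878% ± 1.15 and 1.72% ± 0.691. With liver replicate 1 of the other genotypes it was 0.0863% and 2.45% (n = 6). With gut replicate 1 of the same genotype it was 15.6% ± 6.17 and 19.4% ± 4.27. Over all rows of these lengths, doublet or not, the measure was 48.1% ± 6.89 for CD4 and 46.2% ± 8.25 for CD8 in the first of these comparisons, close to the doublet values. In the others it was 6.98% and 7.31% (liver replicate 2), 6.18% and 6.44% (other genotypes) and 21.03% and 21.8% (gut replicate 1), each mean being above that of the doublet clonotypes, a difference that was not tested. The comparisons with liver therefore rest in part on the same clonotypes, and without the liver libraries numbered 1 the differences were -0.000115 percentage points for CD4 and 0.199 for CD8.

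Genotypes were compared over liver and gut together, with 4 libraries each. For CD4 the mean shares were 0.518% ± 0.283 (SD) in WT, 0.574% ± 0.0491 in STAT3ko and 0.515% ± 0.335 in STAT3koPD-1ko. For CD8 they were 0.790% ± 0.135, 0.787% ± 0.325 and 0.704% ± 0.240. All groups overlapped. The differences between genotypes ran from -0.0865 to 0.0552 percentage points over 6 comparisons, with exact permutation p-values within tissue from 0.556 to 1 and adjusted values of 1. These values moved with the settings, from -0.312 (CD8 STAT3koPD-1ko minus STAT3ko with the same V segment weights) to 0.204 (CD8 STAT3ko minus WT with the same weights), and CD8 STAT3koPD-1ko minus WT was -0.290 over 11 to 16 residues. An exact permutation test over 36 arrangements cannot go below p = 0.0556, so no single comparison of genotypes could pass.

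The doublet was next set against clonal expansion. Expanded clonotypes were those with a mean below 0.001% of reads in the 3 libraries before HCT and above 0.01% in a day 6 library. The libraries before HCT overlapped more with the day 6 libraries numbered 1 of their genotype than with those numbered 2. The first condition may therefore not act alike on both numbers, which the tests treat alike. In liver, 206 to 421 CD4 and 300 to 624 CD8 clonotypes counted as expanded in a library numbered 1. In those numbered 2 they were 1092 to 1418 and 1381 to 1540. In gut the counts of the 2 numbers overlapped. In liver, 31 of 4859 expanded CD4 clonotypes and 69 of 5816 expanded CD8 clonotypes had the doublet, summed over 6 libraries each. In gut they were 17 of 3250 and 40 of 4255. Per library, 0.661% ± 0.270 (SD, n = 6) of expanded and 0.616% ± 0.0603 of other CD4 liver clonotypes had it, with the expanded higher in 3 of 6 libraries. For CD8 liver the values were 1.25% ± 0.550 and 1.01% ± 0.1205, again 3 of 6. The gut values were 0.547% ± 0.333 and 0.464% ± 0.249 for CD4 (2 of 6 higher) and 0.907% ± 0.499 and 0.842% ± 0.252 for CD8 (4 of 6 higher). No difference passed, and without the condition on the libraries before HCT all 4 had the opposite sign, from -0.272 to -0.137 percentage points (exact permutation p-values over 64 sign flips with the condition 0.688 and 0.438 in liver and 0.562 and 0.688 in gut, adjusted 0.688 in all 4). With a limit of 0.02% of reads for expanded clonotypes the difference was 0.344 in CD4 liver, 0.362 in CD4 gut, 0.333 in CD8 liver and -0.306 in CD8 gut, where all 5 alternatives other than leaving out 1 library were below 0. The expanded clonotypes of a library included 1 to 29 with the doublet. In CD8 liver the difference of 0.235 percentage points was 0.0623 without STAT3ko liver replicate 2 and 0.1004 without WT liver replicate 1.

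**Figure D3:**
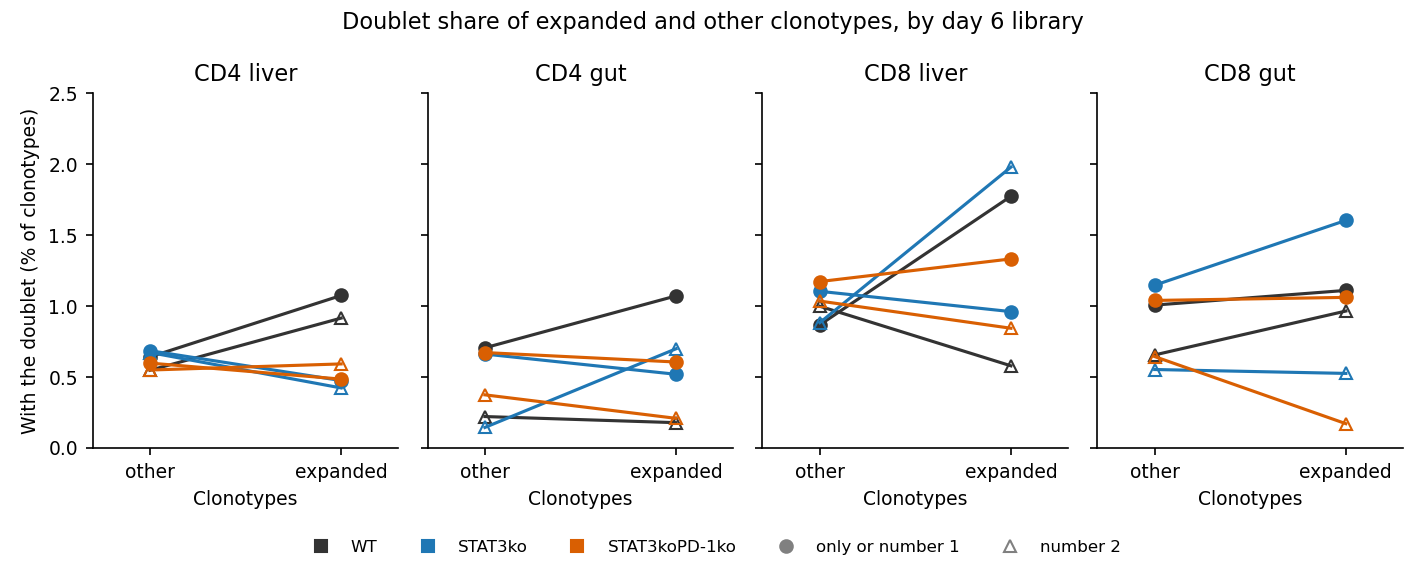
Percent of clonotypes with the doublet among other and expanded clonotypes of each day 6 library (lines join the 2 values of a library). Colours mark the genotype and open triangles the libraries numbered 2. Lines run in both directions in all 4 panels, with the expanded clonotypes higher in 3, 2, 3 and 4 of 6 libraries.

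Across the range of clone sizes the share of clonotypes with the doublet had a lower mean among large clones than among small ones in liver and gut. Among CD4 liver clonotypes up to 0.001% of reads it was 0.689% ± 0.173 (SD, n = 6), between 0.001% and 0.01% it was 0.624% ± 0.147, and above 0.01% it was 0.503% ± 0.130. The CD8 liver values were 1.13% ± 0.218, 1.01% ± 0.124 and 0.898% ± 0.372. In gut the largest clones had 0.338% ± 0.189 for CD4 and 0.597% ± 0.291 for CD8, against 0.548% ± 0.306 and 0.889% ± 0.213 for the smallest. Without the gut libraries numbered 2 these were 0.439% ± 0.146 (SD, n = 3) and 0.808% ± 0.186 for the largest and 0.724% ± 0.0677 and 1.07% ± 0.0536 for the smallest. In the libraries before HCT the values of the smallest and the largest clones were 0.591% and 0.675% for CD4 and 1.23% and 0.841% for CD8. With all 6 libraries per tissue the ranges of mean ± SD of the largest and smallest clones overlap, and in gut without the libraries numbered 2 they do not. This order was not tested.

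The segments that formed the doublet clonotypes differed from those of other clonotypes. Over 12 day 6 libraries, TRBD2 was called in 52.6% ± 7.28 (SD) of the CD4 doublet clonotypes of a library and in 24.7% ± 0.802 of the other clonotypes from C to F or W. For CD8 the values were 53.8% ± 7.33 and 29.6% ± 0.845. TRBD1 was called in 4.01% ± 3.75 against 44.5% ± 2.02 for CD4 and in 3.95% ± 2.63 against 42.8% ± 1.34 for CD8. Both held in 12 of 12 libraries of each table. The D call is read from the bases that also give residues 6 and 7, so this is a description of what the rule selected. Libraries list many of the same clonotypes, and no p is given for this or the next values. No D segment was called in 42.1% of the CD4 and 43.4% of the CD8 doublet clonotypes over the whole tables, against 28.5% and 26.7% of all other rows of these lengths.

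The bases of residues 6 and 7 came less often from a D segment and more often from bases assigned to no segment. Of the 6 bases, 35.1% on average were assigned to D in the 458 CD4 doublet clonotypes and 56.2% in 53891 other CD4 clonotypes from C to F or W. Bases outside V, D and J made up 37.6% against 21.5%. In CD8 the D bases made up 34.1% against 58.4% and the unassigned bases 41.3% against 21.2%. At least 1 unassigned base lay in residues 6 and 7 of 87.8% of the CD4 and 88.1% of the CD8 doublet clonotypes, and of 51.4% and 50.1% of the others. Unassigned bases comprise added bases and trimmed segment ends too short to be recognised.

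TRBJ2 segments, which follow TRBD2 on the chromosome, were used by 78.0% ± 6.25 (SD, n = 12) of the CD4 doublet clonotypes of a library against 64.5% ± 1.00 of the others, and by 86.2% ± 5.78 against 66.6% ± 0.624 in CD8, higher in 12 of 12 libraries of each table. TRBD2 lies behind the TRBJ1 segments and is known to join TRBJ2, so J use was also counted within each D call. Among clonotypes with TRBD2 called, 98.7% of the doublet and 92.0% of the other CD4 rows used TRBJ2, and 97.3% and 91.2% in CD8. Among rows with no D called, the values were 56.5% and 55.9% for CD4 and 71.1% and 56.1% for CD8. Among J segments used by at least 1% of reads, the doublet share was highest with TRBJ2-1 (0.857% ± 0.689, SD over 15 libraries), TRBJ2-7 (0.812% ± 0.495) and TRBJ2-5 (0.802% ± 0.679) in CD4, and with TRBJ2-5 (1.32% ± 0.688), TRBJ2-1 (1.105% ± 0.432) and TRBJ2-3 (0.975% ± 0.572) in CD8. It was lowest with TRBJ1-5 (0.0494%), TRBJ1-1 (0.0900%) and TRBJ1-2 (0.174%) in CD4, and with TRBJ1-1 (0.227%), TRBJ1-2 (0.228%) and TRBJ1-5 (0.384%) in CD8.

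Doublet clonotypes recurred in fewer libraries. Over the whole tables, 0.873% of the 458 CD4 doublet clonotypes were listed in at least 5 of 15 libraries, against 10.7% of the other clonotypes from C to F or W. In CD8 the values were 5.46% and 13.6%. No CD4 doublet clonotype was listed in 10 or more libraries, a class with 923 CD4 rows, and 1 of 1591 CD8 rows of that class had the doublet. Per day 6 library, 3.62% ± 6.91 (SD, n = 12) of the CD4 doublet clonotypes and 31.2% ± 8.59 of the others were listed in at least 5 libraries, and 15.3% ± 5.87 and 35.1% ± 7.47 in CD8, lower in 12 of 12 libraries of each table. The doublet CDR3 were also shared less with the other cell type. The same CDR3 was listed in the CD8 table for 15.7% of the CD4 doublet clonotypes and 27.0% of the others, and in the CD4 table for 9.14% of the CD8 doublet clonotypes and 23.5% of the others. Of the doublet clonotypes, 72 CDR3 were found in both tables, and 23 of these also had the same V and J segment.

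**Figure D4:**
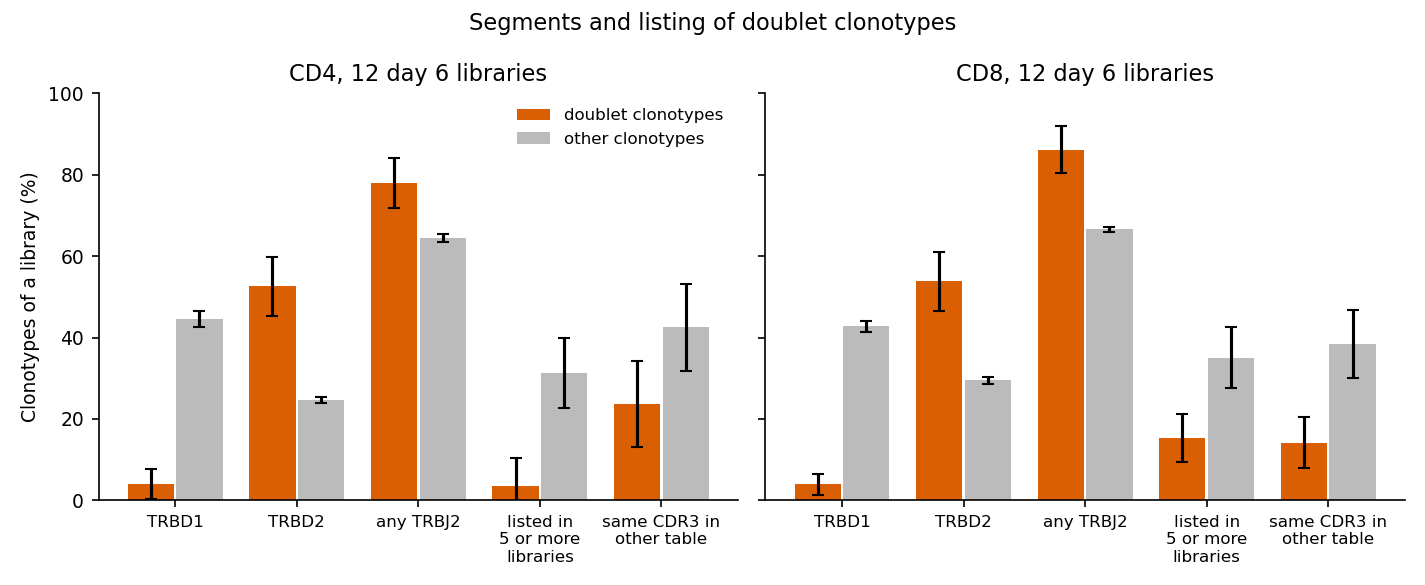
Percent of the clonotypes of a day 6 library with TRBD1, TRBD2 or a TRBJ2 segment, listed in at least 5 libraries, or with the same CDR3 in the table of the other cell type, for doublet clonotypes (orange) and other clonotypes from C to F or W (grey). Bars are means and whiskers the SD over 12 libraries. Doublet clonotypes lie higher for TRBD2 and TRBJ2 and lower for TRBD1 (4.01% against 44.5% in CD4) and for both measures of sharing.

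The doublet share differed between V segments. TRBV3 (chr6:41048290-41048828, GRCm38, plus strand) had the highest among segments used by at least 1% of reads, at 1.12% ± 0.971 (SD over 15 libraries, 62 doublet clonotypes) in CD4 and 1.65% ± 0.760 (85 doublet clonotypes) in CD8. TRBV12-1 (1.05% ± 1.96) and TRBV5 (1.01% ± 1.24) followed in CD4, and TRBV16 (1.24% ± 0.385) and TRBV12-1 (1.16% ± 0.542) in CD8. TRBV29 (chr6:41271394-41271881, plus strand), used by 20.99% of CD8 reads, had the lowest CD8 share above 0, at 0.293% ± 0.191. In CD4 it had 0.196% ± 0.407, next to TRBV15 at 0.146% ± 0.297 and TRBV13-1 at 0.205% ± 0.161. TRBV17 and TRBV12-2 were the next lowest in CD8, at 0.505% ± 0.474 and 0.557% ± 0.304. TRBV1 had no doublet clonotype among 3982 CD4 and 2945 CD8 rows. In 9 of the 18 CD4 segments above 0 the SD was larger than the share itself, so the order of neighbouring segments is not resolved.

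**Figure D5:**
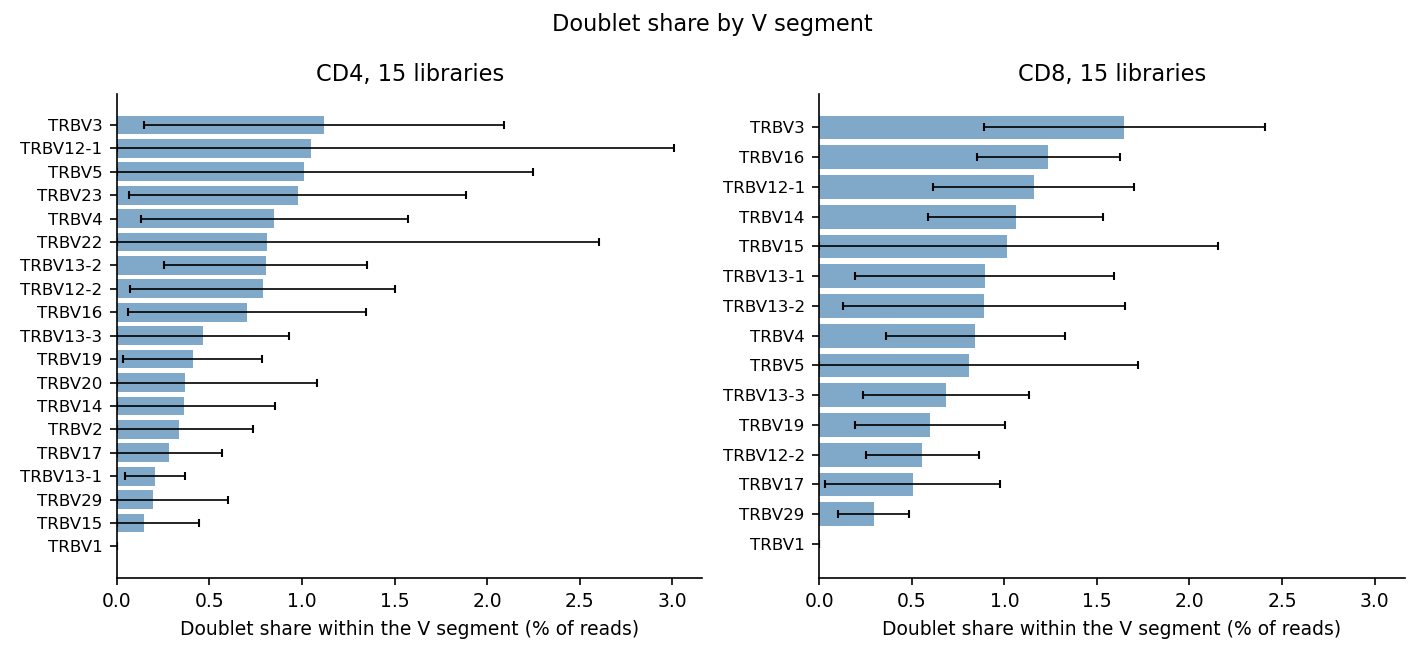
Doublet share within each V segment used by at least 1% of reads on average, in percent of the reads of that segment and of 12 to 15 residues, for CD4 (left) and CD8 (right). Bars are means over 15 libraries and whiskers the SD, ended at 0. TRBV3 stands at the top in both (1.12% and 1.65%), TRBV29 is among the lowest, and TRBV1 is at 0.

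When the doublet share within V segments was compared between gut and liver with limma on log2(percent + 0.1), 1 of 18 segments was called in CD4, 5.56% of those tested, and 0 of 14 in CD8, 0% of those tested. At an unadjusted p below 0.05 there were 2 and 0. The CD4 segment was TRBV22 (chr6:41212244-41212534, plus strand), annotated as a pseudogene. Its doublet share in liver was 0% (WT replicate 1), 0.766% (WT replicate 2), 2.01% and 1.75% (STAT3ko) and 0.104% and 6.87% (STAT3koPD-1ko). In gut it was 0.369% in STAT3koPD-1ko replicate 1 and listed at 0 in the other 5 libraries. The change was -2.77 ± 0.755 (SE) on this log2 scale (limma adjusted p = 0.00605). All 18 CD4 segments were given this same SE, so it does not measure the spread of TRBV22 alone. The SD of its share was 2.56 percentage points in liver and 0.151 in gut. These shares rest on 0 to 3 doublet clonotypes per library, and no segment was called when each clonotype was counted once, with a pseudocount of 1%, or without STAT3koPD-1ko liver replicate 2, STAT3ko gut replicate 2 or STAT3koPD-1ko gut replicate 2. The doublet share was lower in gut in 17 of the 18 CD4 segments and 12 of the 14 CD8 segments, which share the 3 gut libraries numbered 2. Without those libraries, an alternative chosen after seeing the data, it was lower in 6 of 18 and 4 of 14, and no segment was called in either table.

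The doublet share was also set out by CDR3 length. In CD4 it was 0.367% ± 0.410 (SD over 15 libraries) at 12 residues, 0.356% ± 0.391 at 13, 0.563% ± 0.257 at 14 and 1.01% ± 0.590 at 15. In CD8 it was 0.697% ± 0.354, 0.720% ± 0.401, 0.643% ± 0.256 and 0.997% ± 0.405. The spread between libraries exceeds most steps, and 15 residues had the highest mean in both tables.

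The residues of the doublet were not used evenly. Of the CD4 doublet clonotypes, 33.0% had 2 aliphatic residues (I, L, M or V), 20.1% had 2 aromatic residues (F, W or Y) and 46.9% had 1 of each. In CD8 the values were 40.0%, 17.5% and 42.5%. Valine followed by tryptophan had the highest mean share in CD4 (0.0805% ± 0.0965, SD over 15 libraries, 52 clonotypes), then leucine-leucine (0.0681% ± 0.0994), leucine-tryptophan (0.0563% ± 0.112), valine-leucine (0.0411% ± 0.0401) and tyrosine-tryptophan (0.0400% ± 0.0242). In CD8 the order was valine-leucine (0.112% ± 0.0446, 110 clonotypes), tryptophan-valine (0.0761% ± 0.0539), valine-tryptophan (0.0672% ± 0.0329), tyrosine-tryptophan (0.0654% ± 0.0329) and leucine-valine (0.0491% ± 0.0506). Among these pairs TRBD2 was called most often with tyrosine-tryptophan, in 53 of its 54 CD4 and 85 of its 90 CD8 clonotypes. Valine-isoleucine, chosen after its values were seen, had TRBD2 in 0 of 9 CD4 and 1 of 24 CD8 clonotypes.

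Hydrophobic pairs were placed among all residue pairs at positions 6 and 7 with limma on log2(percent + 0.01), over pairs with a mean share of at least 0.02%. That left 221 pairs in CD4, 8 of them hydrophobic, and 232 in CD8, 11 of them hydrophobic. Between gut and liver 0 of 8 and 0 of 11 hydrophobic pairs were called, against 0% of all pairs in both tables, and 1 and 1 had an unadjusted p below 0.05. Over all pairs, 22 of 221 in CD4 and 19 of 232 in CD8 were below that threshold. The median log2 change of the hydrophobic pairs was -0.472 in CD4 and -0.197 in CD8, beside -0.272 and -0.173 over all pairs tested, so the pairs as a whole were lower in gut on this scale. Without the gut libraries numbered 2, again chosen after seeing the data, the medians were -0.225 and 0.138, beside 0.0379 and 0.0680 over all pairs, and 0 pairs were called. Between day 6 and before HCT 0 hydrophobic pairs were called in either table, against 0% of all pairs, with 1 and 1 at an unadjusted p below 0.05. Over all pairs, 8 of 221 in CD4 and 12 of 232 in CD8 were below that threshold. For day 6 minus before HCT, CD4 leucine-leucine was at -2.12 ± 0.629 on the log2 scale (SE, limma adjusted p = 0.557). Its mean share was 0.204% before HCT, 0.0470% in liver and 0.0213% in gut, and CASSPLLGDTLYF of the STAT3ko library before HCT carries this pair.

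Between genotypes no hydrophobic pair passed limma in either table. For CD4, 0% of all pairs were called in each of the 3 comparisons, and 1 of 8 (STAT3ko minus WT), 2 of 8 (STAT3koPD-1ko minus STAT3ko) and 0 of 8 (STAT3koPD-1ko minus WT) hydrophobic pairs had an unadjusted p below 0.05. Over all 221 CD4 pairs, 12, 20 and 9 were below that threshold in the same comparisons. For CD8, 0.431% of all pairs were called between STAT3ko and WT and 0% in the other 2 comparisons, and 3, 1 and 0 of 11 hydrophobic pairs had an unadjusted p below 0.05. Over all 232 CD8 pairs, 28, 16 and 11 were below that threshold. The 1 pair called was asparagine-alanine, no hydrophobic pair, at -2.46 ± 0.445 on the log2 scale (SE, limma adjusted p = 0.0420), and leaving out 1 library at a time gave 0 to 3 calls. CD8 leucine-leucine, chosen after its values were seen, was 0.982 ± 0.306, and CD8 valine-leucine was -0.919 ± 0.332 for STAT3ko minus WT on the log2 scale (limma adjusted p = 0.262 and 0.286). CD4 valine-tryptophan was -2.05 ± 0.653 for STAT3koPD-1ko minus STAT3ko (limma adjusted p = 0.458).

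The most frequent CD4 doublet clonotypes were listed in 2 to 4 libraries. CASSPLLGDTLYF (TRBV5, TRBJ2-4), the most frequent in CD4, held 0.279% of the STAT3ko reads before HCT, 0.0446% of STAT3ko liver replicate 1 and 0.00385% of STAT3ko gut replicate 1. It was listed at 0 in the other 12 CD4 libraries. The 15-residue CD4 clonotype with leucine-tryptophan (TRBV16, TRBJ2-5) held 0.241% of STAT3koPD-1ko liver replicate 2 and 0.00296% of STAT3koPD-1ko gut replicate 1, and was listed at 0 elsewhere. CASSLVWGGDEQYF (TRBV16, TRBJ2-7) held 0.142% of the STAT3ko reads before HCT, 0.0858% of STAT3ko liver replicate 1, 0.00764% of STAT3ko liver replicate 2 and 0.00128% of STAT3ko gut replicate 1. All libraries with it were of 1 genotype. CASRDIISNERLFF (TRBV19, TRBJ1-4), the highest before HCT among those listed in 2 libraries there, held 0.00723% of WT and 0.000469% of STAT3ko reads.

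In CD8 the largest doublet clonotype crossed genotypes. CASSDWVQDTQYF (TRBV13-1, TRBJ2-5) was listed in 8 of 15 libraries, with 0.158% of WT liver replicate 1 and 0.0786% of WT gut replicate 1 as the highest values. It held 0.0141% of the WT and 0.00873% of the STAT3ko reads before HCT. STAT3ko liver replicate 1 had 0.0116%, and the other 3 gut libraries with it had 0.000462% to 0.00111%. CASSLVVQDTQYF (TRBV14, TRBJ2-5) was listed in 9 libraries, 3 of liver, 5 of gut and 1 before HCT, with a highest value of 0.0283% in WT gut replicate 1. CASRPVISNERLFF (TRBV29, TRBJ1-4) was listed in STAT3koPD-1ko libraries alone, with 0.0455% before HCT, 0.0560% in liver replicate 1 and 0.00601% in gut replicate 1. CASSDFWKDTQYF (TRBV13-3, TRBJ2-5), the highest before HCT among those listed in 2 libraries there, held 0.0745% of the STAT3ko reads.

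The doublet clonotypes listed in the most libraries come next. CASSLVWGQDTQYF (TRBV12-2, TRBJ2-5) was listed in 2 liver and 4 gut CD4 libraries, of all 3 genotypes, at 0.00148% to 0.00385%, and was listed at 0 before HCT. The 15-residue clonotype with valine-tryptophan (TRBV16, TRBJ2-5) was listed in 5 CD4 libraries, with 0.0656% of STAT3ko reads before HCT and 0.0711% of STAT3ko liver replicate 1 as its highest values. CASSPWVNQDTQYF (TRBV19, TRBJ2-5) was listed in 5 CD4 libraries, with a highest value of 0.0132% in WT gut replicate 2. The 15-residue clonotype with valine-tryptophan (TRBV16, TRBJ2-1) was listed in 10 CD8 libraries, in all 3 before HCT, 4 of liver and 3 of gut, at 0.000338% to 0.00956%. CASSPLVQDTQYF (TRBV12-2, TRBJ2-5) was listed in 9 CD8 libraries, with a highest value of 0.0144% in WT liver replicate 1. Valine-tryptophan followed by glycine recurs in 3 of these 5.

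Doublet clonotypes low before HCT were ordered by their median over the 12 day 6 libraries. In CD4 the first was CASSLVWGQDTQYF, with a median of 0.000740%, midway between 0 and its lowest listed value. All others had a median of 0, so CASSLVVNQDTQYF (TRBV12-2, TRBJ2-5) was taken from this tie by its place in the table, listed in 1 liver and 4 gut libraries with a highest value of 0.00543% in STAT3koPD-1ko gut replicate 1. In CD8 the first were a 15-residue clonotype with leucine-leucine (TRBV29, TRBJ2-1), listed in 2 liver and 4 gut libraries at 0.00298% to 0.00864%, and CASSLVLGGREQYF (TRBV16, TRBJ2-7), listed in 4 liver and 4 gut libraries with a highest value of 0.0374% in WT gut replicate 2. Their day 6 medians were 0.00149% and 0.00148%, the first again midway between 0 and its lowest listed value. Each was found in tissue libraries of more than 1 genotype.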

How the data were processed

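TCRB CDR3 of CD4 and CD8 T cells were sequenced from RNA of equal numbers of sorted cells with the SMARTer mouse TCR kit. The authors called clonotypes with MiXCR and joined the libraries of each table with VDJtools, and the deposited tables give each clonotype as a fraction of the reads of its library. The submitters' processing notes name the build mm10. The study describes its samples as 2 batches, each a pool of 3 mice, and the labels do not tie a replicate number to a batch across groups. All per-sample columns of the 15 libraries per table were used, and each library was placed in a group by its label. The members and lists were chosen with earlier results of these data known.

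Doublet shares were computed by column sums over rows of 12 to 15 residues and compared with exact two-sided permutation tests over libraries (within tissue for genotypes, sign flips for expanded clonotypes), with Benjamini-Hochberg adjustment in each family and a threshold of 0.05. On log2 values, residue pairs and V segments were fitted in limma (version 3.58.1, R 4.3.3), with pseudocounts of 0.01% and 0.1%, after a check on simulated data. Clonotypes named are the 3 with the highest mean, the highest in each site among those listed in at least 2 of its libraries, the 3 listed in most libraries, and the 2 with the highest day 6 median among those with a mean below 0.001% before HCT. Pairs named are the 5 with the highest share, and segments the 3 highest and 3 lowest among those used by at least 1% of reads, with any that passed. Python 3.11.15 with numpy 2.4.6 and pandas 2.3.3 was used. Replicates are separate libraries of pooled recipients, and p-values measure the spread between these libraries alone. Segment positions and D sequences are from GRCm38 with GENCODE M21. The alternatives covered weights, residue set, lengths, listing, makeup, pairing and each library left out.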

Additional observations from a re-analysis of the deposited data

Results flagged for a closer look

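Of 24 groups of 4 or more libraries checked for a single library far from the others, 1 held one. Among the 4 CD4 STAT3ko libraries of day 6, gut replicate 2 had the doublet in 0.264% of its clonotypes, while the next lowest had 0.645%, and this gap was 0.923 of the range of the group. The value comes from 7 doublet clonotypes of 2648 listed clonotypes of these lengths, and listed clonotypes held 49.1% of the reads of that library. Weighted by reads its doublet share was 0.581%, within the range of the other STAT3ko libraries. Chance flags about 1 in 20 such groups.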

How the results depend on the processing

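Differences are in percentage points unless stated. Over the alternatives other than leaving out 1 library, 204 values kept their direction and their side of the threshold, 55 changed sign, 14 newly passed and 5 no longer passed. Of 213 differences among these in linear units, 159 kept their sign and 76 of those moved by over 1.5 times. Lowest and highest values were -0.443 and -0.101 for CD4 minus CD8 in liver and -0.393 and -0.138 in gut, -0.288 and 0.0628 (CD4) and -0.292 and 0.0445 (CD8) for gut minus liver, -0.438 and 0.0712 and -0.0830 and 0.289 for liver minus before HCT, and -0.429 and 0.134 and -0.220 and 0.172 for gut minus before HCT. For genotypes they were -0.0938 and 0.0552 (CD4) and -0.194 and 0.204 (CD8) for STAT3ko minus WT, -0.0977 and 0.0706 and -0.312 and 0.00631 for STAT3koPD-1ko minus STAT3ko, and -0.142 and 0.0589 and -0.290 and 0.0724 for STAT3koPD-1ko minus WT. The CD4 minus CD8 difference kept its sign in all 54 alternatives run for liver and gut. The causes of the changes below were not tested. With each clonotype counted once, CD4 minus CD8 passed in liver (-0.412) and gut (-0.367), liver minus before HCT was 0.0712 in CD4 and -0.0255 in CD8, STAT3ko minus WT 0.0661 in CD8, STAT3koPD-1ko minus STAT3ko 0.00631 in CD8, STAT3koPD-1ko minus WT 0.00127 in CD4 and 0.0724 in CD8, and 0 V segments (CD4) and 0 pairs (CD8 STAT3ko minus WT) were called. With fractions capped at 0.0001, CD4 minus CD8 in liver was -0.424 and STAT3ko minus WT in CD8 0.0991. Against C to F or W rows alone, STAT3koPD-1ko minus WT in CD4 was 0.00368 and the CD4 and CD8 contrast of gut minus liver -0.0170. Without Y these 2 were 0.00358 and -0.0376, and expanded minus other in CD8 gut was -0.0527. Over 11 to 16 residues, CD4 minus CD8 in liver was -0.393, STAT3koPD-1ko minus WT in CD4 0.00681 and expanded minus other in CD8 gut -0.0394. With clonotypes in at least 3 libraries, gut minus liver in CD4 was 0.00877, liver minus before HCT in CD8 -0.0464, STAT3ko minus WT in CD4 -0.0240, STAT3koPD-1ko minus STAT3ko in CD4 0.0213, and expanded minus other -0.137 in CD4 liver, -0.124 in CD8 liver and -0.139 in CD8 gut. With the same V segment weights, CD4 minus CD8 in liver was -0.383, gut minus before HCT in CD8 0.0229, and STAT3ko minus WT -0.0508 in CD4 and 0.204 in CD8. With the same length weights the first 2 were -0.259 and 0.00826, STAT3ko minus WT in CD8 0.0170 and the contrast of gut minus liver -0.0216. On the log2 scale that contrast was -0.437 log2 units. Without the gut libraries numbered 2 it was -0.0348, gut minus before HCT in CD8 0.172, STAT3ko minus WT -0.0938 in CD4 and 0.0864 in CD8, and STAT3koPD-1ko minus STAT3ko in CD4 0.0511. Without the liver libraries numbered 1 the contrast was -0.0566, STAT3ko minus WT -0.0117 in CD4 and 0.130 in CD8, and STAT3koPD-1ko in CD4 0.0706 above STAT3ko and 0.0589 above WT.

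The following were chosen after seeing the data. Counted once without the gut libraries numbered 2, gut minus liver was 0.0628 in CD4 and 0.0445 in CD8, and gut minus before HCT 0.134 and 0.0190. Without those libraries 0 V segments were called in CD4. Counted once without the liver libraries numbered 1, liver minus before HCT was 0.0455 in CD4 and -0.0575 in CD8. Counted once with the same listing number weights, CD4 minus CD8 was -0.443 in liver and -0.364 in gut, gut minus liver in CD4 0.00400, liver minus before HCT 0.0410 in CD4 and -0.0830 in CD8, and gut minus before HCT in CD4 0.0450.

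For expanded minus other, a limit of 0.0002 gave 0.344 in CD4 liver, 0.362 in CD4 gut, 0.333 in CD8 liver and -0.306 in CD8 gut, and dropping the condition on the libraries before HCT gave -0.137 (CD4 liver), -0.150 (CD4 gut), -0.152 (CD8 liver) and -0.272 (CD8 gut). A pseudocount of 1% left 0 V segments in CD4, and testing all pairs seen left 0 for CD8 STAT3ko minus WT.

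Libraries of the same number were not paired by the labels, and their deviations correlated from -0.110 to 0.0753 between gut and liver, 0.00866 to 0.281 between genotypes in CD4, -0.0320 to 0.296 in CD8 and -0.0805 to 0.258 between CD4 and CD8. With the replicate block, CD4 minus CD8 counted once passed in liver (-0.412) and gut (-0.367, exact permutation adjusted p = 0.0313 in both) and did not weighted by reads (-0.225 and -0.224, exact permutation adjusted p = 0.125 in both). Between genotypes the correlations in gut alone were all above 0.1. In liver only that of CD8 WT with CD8 STAT3koPD-1ko was, at 0.118. In limma the block gave 1 pair for CD4 STAT3koPD-1ko minus STAT3ko (threonine-arginine), 1 for CD8 gut minus liver (phenylalanine-proline) and 2 for CD8 STAT3ko minus WT (asparagine-alanine and proline-alanine), none of them hydrophobic at both positions, and 3 V segments in CD8 (TRBV5, TRBV13-1 and TRBV15, all lower in gut). In a genotype block, chosen after seeing the data, the differences from before HCT by reads were the same values with exact permutation adjusted p from 0.454 to 0.991, and counted once liver minus before HCT was 0.0712 in CD4 and -0.0255 in CD8 (adjusted p = 0.338 and 0.778).

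Leaving out 1 library at a time, CD4 minus CD8 in liver ran from -0.280 to -0.181, and passed without CD4 STAT3koPD-1ko liver replicate 2 or CD8 WT liver replicate 2. Liver minus before HCT ran from -0.175 to 0.123 in CD4 and 0.00914 to 0.288 in CD8, and gut minus before HCT from -0.390 to -0.0924 and -0.207 to 0.0722. STAT3ko minus WT ran from -0.0911 to 0.202 in CD4 and -0.156 to 0.150 in CD8, STAT3koPD-1ko minus WT from -0.150 to 0.143 and -0.174 to 0.000771, and STAT3koPD-1ko minus STAT3ko from -0.166 to 0.0484 and -0.237 to 0.0692. The contrast of gut minus liver ran from -0.0914 to 0.0632. Expanded minus other ran from -0.0325 to 0.104 in CD4 liver, -0.0458 to 0.134 in CD4 gut, 0.0623 to 0.366 in CD8 liver and -0.0640 to 0.173 in CD8 gut. Calls ran from 0 to 1 for CD4 STAT3koPD-1ko minus WT pairs and CD4 V segments, and from 0 to 3 for CD8 STAT3ko minus WT pairs. Depth is unknown, and the 3 gut libraries numbered 2 rest on the fewest CD4 doublet clonotypes.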
